A study of Mus musculus with 6 samples.

Results

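The nuclear-encoded genes of the mitochondrial respiratory chain and ATP synthase were followed in 6 RNA sequencing libraries of mouse CD4 T cells. Members were the protein-coding genes whose symbol began with Ndufa, Ndufb, Ndufc, Ndufs, Ndufv, Uqcr, Sdha, Sdhb, Sdhc, Sdhd, Cox4i, Cox5, Cox6, Cox7, Cox8 or Atp5, without the Ndufaf assembly factors. The rule found 90 rows under 89 symbols (Atp5o has 2 identifiers), out of 54532 gene rows, of which 21918 were protein-coding. Another 13 rows with such symbols were not protein-coding and were left out. Of these, 12 were processed pseudogenes with means between 0.0167 and 0.383 FPM, the deposited unit of fragments per gene scaled to library size. The remaining one, Ndufb1-ps, is annotated as a bidirectional promoter lncRNA and had a mean of 26.8 FPM. By role the rows were 36 subunits of complex I, 4 of complex II, 8 of complex III, 19 of complex IV, 17 of ATP synthase (complex V) and 6 assembly or associated factors that the prefixes also caught (Sdhaf1 to Sdhaf4, Atp5s and Cox7a2l). Ndufa4 and Ndufa4l2 were placed with complex IV, where Ndufa4 protein is now known to sit.

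The respiratory chain passes electrons from NADH (complex I) and succinate (complex II) through complex III and cytochrome c to complex IV, and the proton gradient built on the way drives ATP synthase. Most subunits are encoded in the nucleus and imported, whereas a small set of core subunits of complexes I, III, IV and V is encoded in mitochondrial DNA, so that most of these complexes draw on both genomes. Resting T cells obtain much of their ATP from oxidative phosphorylation, and activation through the T cell receptor expands mitochondrial mass together with glycolysis.

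All 6 libraries came from total RNA of the CD4 T cell fraction of C57BL/6 mouse spleens and lymph nodes. The 3 WT libraries (WT 1, WT 2 and WT 4) carried the genotype label iCD4-PRMT5fl/fl and the 3 KO libraries (KO 1, KO 4 and KO 5) the label iCD4-PRMT5 delta/delta. PRMT5 is a protein arginine methyltransferase that acts on splicing proteins, and the comparison asks which transcripts differ when its gene is deleted. The labels do not spell out the Cre driver behind iCD4 or how deletion was induced. No source used here states the ages of the mice. The treatment label of all 6 samples states 48 h of anti-CD3/CD28, whereas their titles carry the word rest, so the activation state is not settled and is shared by both groups. A code in the sample descriptions places WT 1, WT 2 and KO 1 in library series 22, and WT 4, KO 4 and KO 5 in library series 24. Prmt5 itself was lower in every KO library (24.4, 23.8 and 21.5 FPM) than in every WT library (34.9, 41.0 and 43.9 FPM). Here and below, values of single libraries are listed in the order WT 1, WT 2, WT 4 and then KO 1, KO 4, KO 5.

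Values are the deposited robust FPM, sequenced fragments per gene scaled by the authors' robust size factors, with 1 decimal. Sequencing depth is unknown, so no counting error is given. Spike-in RNAs (ERCC) took 0.752% to 1.59% of a library's sum. The CD4 T cell markers Cd3e, Cd3d, Cd4, Trac and Lck summed to 1398.4 to 1769.7 FPM in WT and 1517.4 to 1793.3 FPM in KO, while of the markers of CD8 T and NK cells Cd8a was at 0.2 to 2.1 FPM, Cd8b1 at 7.1 to 8.7 FPM and Klrb1c at 15.8 to 28.8 FPM over the 6 libraries. In bulk samples, fewer cells of a type and less RNA per cell cannot be told apart. Log2 changes are KO minus WT of log2(FPM + 0.5), with library series as a term in a limma fit to 14944 genes with a mean of at least 1 FPM. Of the 90 rows, 81 passed this filter. Symbols were taken from a GRCm38 annotation (GENCODE M21), as were all gene coordinates below.

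No respiratory chain transcript passed the test between KO and WT. Of the 81 members tested, 0 had a limma adjusted p below 0.05, and 0 had an unadjusted p below 0.05. The background share of genes called at the adjusted threshold was 0% (0 of 14944), and 0.248% of all genes had an unadjusted p below 0.05. Prmt5, the gene deleted by label, was also not called, with a fitted change of -0.78 (SE 0.137, limma unadjusted p = 0.00049). A lack of calls at this threshold therefore says little about the members. The smallest unadjusted p of a member was 0.229 (Atp5b, limma adjusted p = 1). No member had WT and KO values that did not overlap, against 2.88% of all genes. The fitted log2 changes ran from -0.26 (Sdhc) to 0.37 (Atp5e), with a median of 0.13 beside a median of 0.01 over all genes tested. A positive value was fitted for 75 members (54.4% of all genes tested had one). The 95% interval of the change lay within 2-fold either way for 80 of the 81 members (85.1% of all genes), the exception being Atp5e, and within 1.5-fold for 56 (60.1% of all genes). These intervals bound the size of the difference and do not show that the groups are alike.

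The positive median rested on a few libraries. Without WT 1 the median over the 81 members was 0.00, with 42 positive values, without KO 1 it was -0.12, and without WT 4 it was 0.37. Leaving out KO 1 or WT 4 leaves 1 series with a single genotype. The value without KO 1 is therefore the difference within series 24, and that without WT 4 the difference within series 22. Scaling the libraries to the ERCC spike-ins moved the median of all genes by more than 0.1, from 0.01 to -0.20, and the members' median became -0.09 with 5 positive values, so that relative to all genes the members stayed higher by a similar amount. Of the 18 tested members named by rule below, 14 had a fitted change of the opposite sign with that scaling and 0 with the other 2 scalings, so the signs given for single members and complexes hold for the deposited scaling.

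The members shared a profile over the libraries. Averaged over the 81 members, the deviation of log2(FPM + 0.5) from each gene's mean over the 6 libraries was -0.35 in WT 1, 0.06 in WT 2 and 0.11 in WT 4, and 0.20 in KO 1, 0.01 in KO 4 and -0.02 in KO 5. WT 1 thus stood lowest and KO 1 highest, both in series 22, with the other 4 libraries between them. The median deviation of all genes was -0.12 in WT 1 and 0.04 in KO 1, nearer to 0 in both. WT 1 held the lowest of the 6 values for 73 members (46% of all genes had their lowest value there), and KO 1 the highest for 63 (20.4% of all genes). More strongly expressed genes were lowest in WT 1 more often than all genes: 59.6% of genes with a mean of at least 5 FPM were, and between 61.2% and 78.6% of protein-coding genes with a mean of at least 10 FPM, by bins of mRNA length. Among the members the shares in those bins were 78.6% to 100%. With ERCC scaling WT 1 was lowest for only 2 members (0.69% of all genes), because that scaling raised the WT 1 values of all genes. The summed FPM of all members was 4113.5, 5347.3 and 5568.6 in WT and 6012.7, 5304.3 and 5088.9 in KO. The median SD of a member's log2 values over the 6 libraries was 0.223, against 0.205 over all genes tested. It was 0.0899 once the members' own mean profile was taken away. That step by construction lowers the spread to some degree, and it was not done for all genes.

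**Figure D1:**
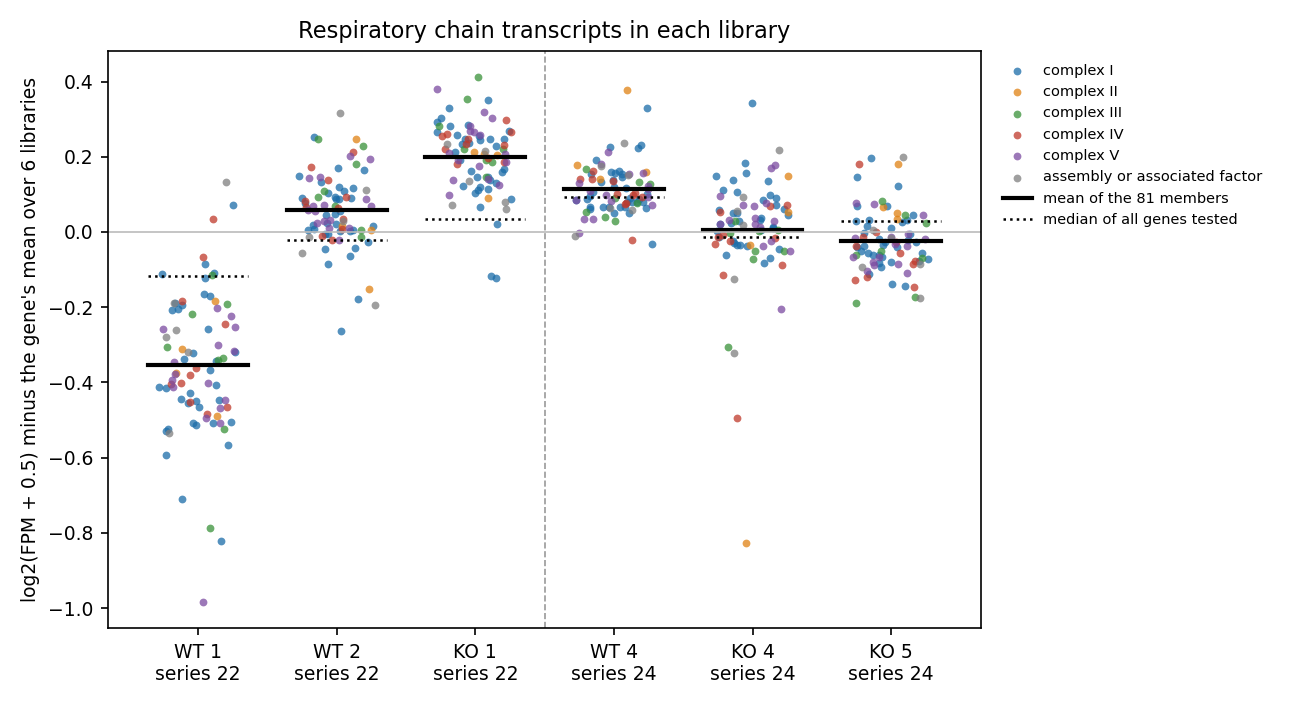
Each point is 1 of the 81 tested members, coloured by complex, and shows log2(FPM + 0.5) minus that gene's mean over the 6 libraries; black bars are means over the members and dotted lines the median of all 14944 genes. The members' mean was -0.35 in WT 1 and 0.20 in KO 1, both in series 22, and lay between -0.02 and 0.11 in the other 4 libraries.

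The genotype difference took opposite signs in the library series. In series 22, KO 1 against the mean of WT 1 and WT 2, the members' median was 0.37 with 80 of 81 positive (all genes: median 0.12, 66.5% positive). In series 24, the mean of KO 4 and KO 5 against WT 4, the median was -0.12 with 78 of 81 negative (all genes: median -0.08, 71.1% negative). KO 1 exceeded both WT libraries of its series, and both KO libraries of series 24 lay below WT 4, in 59 members, against 31.5% of all genes. Series 22 holds 1 KO library and series 24 holds 1 WT library, so each sign rests on a single library of one genotype. Tested gene by gene as an interaction of genotype and series, 0 members had a limma adjusted p below 0.05, as did 0% of all genes. One member, Ndufs3, had an unadjusted p below 0.05 (interaction -0.71, unadjusted p = 0.0374, limma adjusted p = 0.678), against 2.47% of all genes. Ndufs3, which encodes a core subunit of the peripheral arm of complex I and was named after its value was seen, measured 36.4, 46.9 and 58.2 FPM in WT and 59.2, 51.4 and 50.4 FPM in KO. The series term itself called 0 members (0.141% of all genes), and 1 member, Ndufab1, had an unadjusted p below 0.05 for it (series 24 minus series 22 0.36, limma adjusted p = 0.504), against 8.81% of all genes. KO 1 also lay above WT 2 alone in 74 members (62.7% of all genes), with a median difference of 0.14 (all genes 0.07). This was smaller than the median distance of -0.41 between WT 1 and WT 2 (all genes -0.09).

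**Figure D2:**
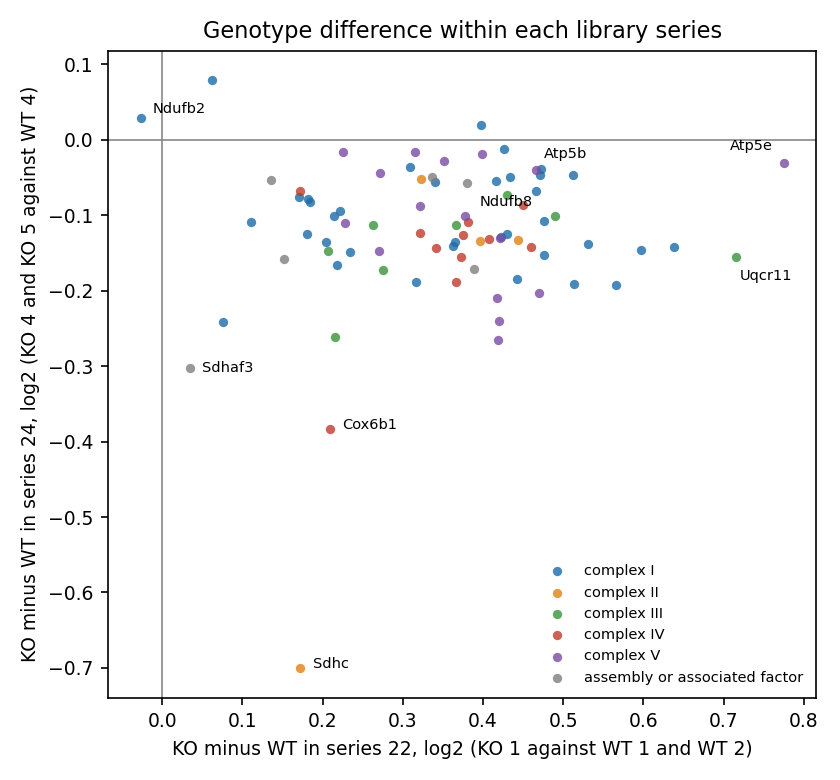
Each point is 1 of the 81 tested members, with the KO minus WT difference in log2(FPM + 0.5) in series 22 on the x axis and in series 24 on the y axis. Nearly all points lie right of 0 on x (80 of 81) and below 0 on y (78 of 81), with Sdhc and Cox6b1 lowest on y.

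Other measurements also differed between the libraries. Myeloid markers (10 of 10 detected, among them Csf1r, Lyz2 and C1qa) summed to 199.1, 306.8 and 772.9 FPM in WT and to 499.9, 568.3 and 1217.2 FPM in KO, with 9 of the 10 lowest in WT 1. KO 5 was highest for the myeloid sum and KO 1 for the members. The CD4 T cell marker sum was lowest in WT 1, at 1398.4 FPM. B cell markers summed to 17.5, 17.5 and 23.1 FPM in WT and 26.1, 20.7 and 27.7 FPM in KO. CD8 T and NK cell markers summed to 48.2, 61.2 and 57.2 FPM in WT and 61.5, 48.7 and 60.7 FPM in KO. Of 3 erythroid markers, Hba-a1 and Hbb-bs were at 0 in every library, and Alas2 was at 0.9 to 1.9 FPM in WT and 0.6 to 1.7 FPM in KO. Olfactory and vomeronasal receptor genes, which T cells are not known to use, gave 0.301 FPM per kb of exon in WT 1 and 0.0143 to 0.0851 in the other 5. The part of these differences in the members' profile was not tested.

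The distance of WT 1 from WT 2 varied with transcript length. Among the 40 members with an mRNA under 750 bases, the median of WT 1 minus WT 2 was -0.52, against -0.36 for the 300 protein-coding genes of that length with a mean of at least 10 FPM. The 14 members of at least 1500 and under 2500 bases had a median of -0.32 (-0.20 for 2032 genes), and the 5 members of 2500 bases and over a median of -0.16 (-0.12 for 4769 genes). Short messages therefore lay further below WT 2 than long ones, among members as among all genes, and members lay further below in each length bin. Respiratory chain subunits are mostly small proteins, and 40 of the 81 members fell in the shortest bin.

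**Figure D3:**
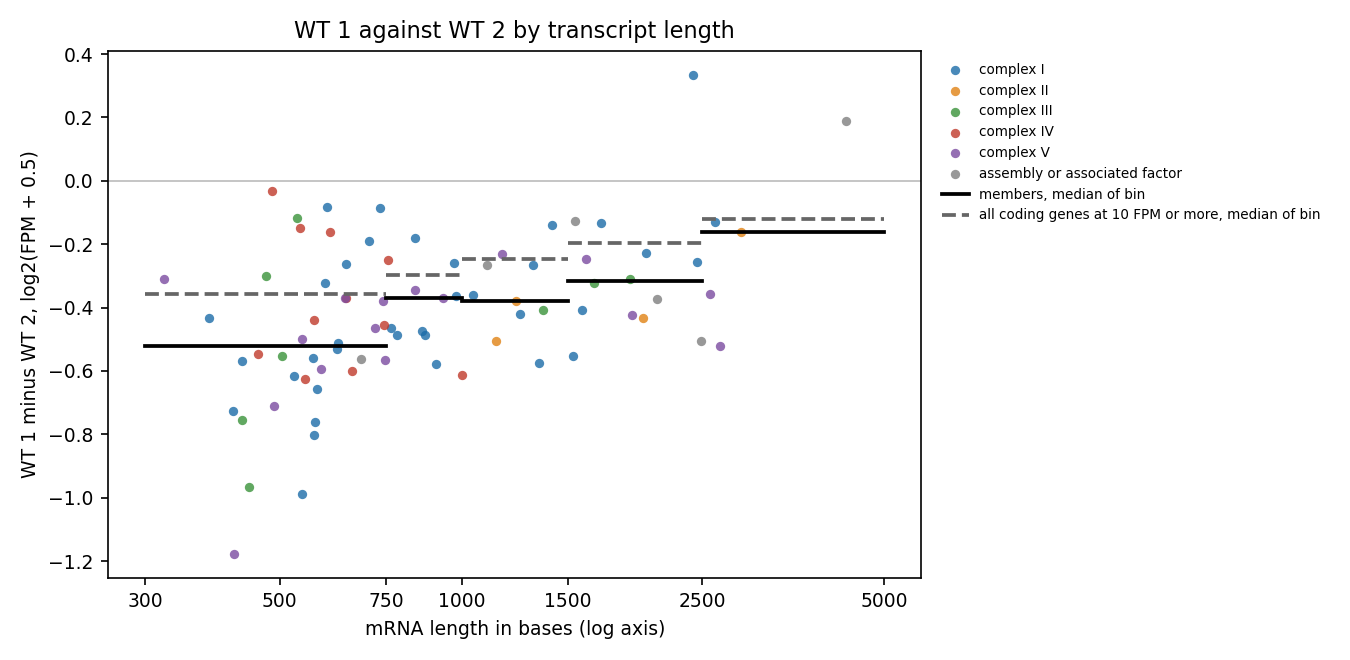
Each point is 1 tested member, with mRNA length in bases on a log x axis and WT 1 minus WT 2 in log2(FPM + 0.5) on y; solid bars are medians of members per length bin and dashed bars medians of all protein-coding genes with a mean of at least 10 FPM. The members' medians run from -0.52 in the shortest bin to -0.16 in the longest, each below the median of all genes in that bin.

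Because the members shared a profile, their promoters were searched for the letters of 5 motifs, in windows from 250 bases before to 50 bases after the RefSeq start of each gene (GRCm38.p6). NRF1 and the ETS factor GABPA (also called NRF2) are textbook regulators of respiratory chain genes. Of the 89 symbols, 71 matched, with 76 windows. On either strand, the NRF1 letters (GCGC, any base, then TGCGC) were in 26.3% of the members' windows and 4.60% of all 32851 windows, and the ETS letters CCGGAAG in 25% and 8.86%. The YY1 letters AAGATGGC were in 11.8% and 2.75%, the SP1 letters GGGCGG in 42.1% and 35.7%, and the TATA box letters TATAAA in 11.8% and 13.6%. Among windows of protein-coding genes alone the shares were 6.38% for NRF1, 11.6% for ETS, 3.05% for YY1, 46.2% for SP1 and 12.6% for TATA. The ETS and YY1 letters can share their AAG. Matches are descriptions of sequence, not sites of binding. The median of WT 1 minus WT 2 was -0.37 in the 19 tested members with NRF1 letters and -0.47 in the 48 without, and -0.38 and -0.44 for ETS letters, so the low values of WT 1 were seen with and without these letters.

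The last 120 bases before the RefSeq start are shown for 7 members, 5' to 3' on the gene's strand. Within these 7 stretches the marked letters ran from 3 NRF1 matches in Sdha to SP1 letters alone in the marker genes Atp5b and Ndufb8. They are examples and do not give the spread over all members. Unlike the mean profile, Sdha was highest in WT 4 and not in KO 1. By the GENCODE coordinates, which place some starts further upstream, the stretches of Atp5b, Sdha, Uqcr11, Cox6a1 and Atp5e end inside the annotated gene. The NRF1 match of Sdha nearest the RefSeq start and the ETS match of Cox6a1 lie in these inside parts. Capitals mark a match on either strand to the NRF1, ETS or SP1 letters.
Atp5b, chr10:128083187-128083306, plus strand: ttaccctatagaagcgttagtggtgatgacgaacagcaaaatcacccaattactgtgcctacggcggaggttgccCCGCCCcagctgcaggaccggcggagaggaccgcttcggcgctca
Ndufb8, chr19:44555443-44555562, minus strand: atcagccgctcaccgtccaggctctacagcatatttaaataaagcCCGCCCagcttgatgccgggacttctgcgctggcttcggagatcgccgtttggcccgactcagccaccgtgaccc
Sdha, chr13:74350241-74350360, minus strand: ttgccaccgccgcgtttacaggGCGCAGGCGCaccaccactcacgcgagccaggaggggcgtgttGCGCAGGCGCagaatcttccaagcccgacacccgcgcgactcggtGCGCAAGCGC
Sdhd, chr9:50603850-50603969, minus strand: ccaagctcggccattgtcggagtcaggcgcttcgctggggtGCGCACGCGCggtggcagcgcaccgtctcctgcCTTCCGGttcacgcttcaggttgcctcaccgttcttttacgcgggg
Uqcr11, chr10:80406822-80406941, minus strand: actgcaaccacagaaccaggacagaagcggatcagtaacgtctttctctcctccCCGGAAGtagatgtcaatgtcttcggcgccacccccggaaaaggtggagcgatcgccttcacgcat
Cox6a1, chr5:115348959-115349078, minus strand: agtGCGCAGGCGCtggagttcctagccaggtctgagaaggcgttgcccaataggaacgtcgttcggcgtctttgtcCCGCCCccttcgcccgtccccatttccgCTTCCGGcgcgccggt
Atp5e, chr2:174464102-174464221, minus strand: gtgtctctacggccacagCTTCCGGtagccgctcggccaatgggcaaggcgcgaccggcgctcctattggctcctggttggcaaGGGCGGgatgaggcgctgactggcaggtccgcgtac

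Complex I takes electrons from NADH. All 36 of its rows were tested, with a median KO minus WT of 0.14, 35 positive values and 0 calls. Ndufb8 (ENSMUSG00000025204.10, chromosome 19, 44548572 to 44555440, minus strand), an accessory subunit of the membrane arm widely used as a marker of assembled complex I, measured 27.2, 30.0 and 37.7 FPM in WT and 38.3, 37.5 and 35.1 FPM in KO. The WT libraries spread over a wider range than the KO libraries, and WT 4 lay within the KO range. The change was 0.18 (SE 0.142, n = 3 per group, limma adjusted p = 1). Ndufb5, another accessory subunit, gave 28.3, 40.6 and 43.6 FPM in WT and 44.8, 43.6 and 44.8 FPM in KO (change 0.21, limma adjusted p = 1). Here only WT 1 and WT 2 lay below every KO library. Ndufa2 had the highest FPM per kb of complex I, with 24.7, 42.2 and 37.0 FPM in WT and 43.7, 34.2 and 33.6 FPM in KO (change 0.15). Ndufb2 and Ndufs7, chosen after their values were seen, departed from the shared profile, Ndufs7 mainly in KO 4. Ndufb2 was not low in WT 1 (10.6, 8.3 and 10.7 FPM in WT, 9.2, 10.3 and 11.6 FPM in KO), and its exons overlap those of Braf on the opposite strand (mean 61.5 FPM). Ndufs7 was lowest in WT 1 at 18.0 FPM, like most members, but peaked in KO 4 at 33.4 FPM, with 18.0 to 29.2 FPM in the other 5 libraries.

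Complex II, succinate dehydrogenase, links the tricarboxylic acid cycle to the chain and is the only one of the 5 complexes encoded wholly in the nucleus. Its 4 subunits had a median change of 0.13 and 0 calls. Sdha (chromosome 13, 74322254 to 74350280, minus strand), the flavoprotein that oxidises succinate, measured 146.3, 163.7 and 202.9 FPM in WT and 193.7, 201.4 and 190.2 FPM in KO (change 0.14). WT 4 was the highest of the 6 and the groups overlapped. Sdhb, the iron-sulfur subunit, and Sdhd, a membrane anchor, had fitted values of 0.16 and 0.13 that did not pass the test. Sdhc, the other membrane anchor, differed from its partners: it measured 17.0, 23.1 and 25.3 FPM in WT and 22.4, 10.7 and 22 FPM in KO. The low value was that of KO 4 alone, and the change of -0.26 (SE 0.308, limma adjusted p = 1) was 0.01 without KO 4. Without WT 4 it was 0.17, which is the difference within series 22, to which KO 4 does not contribute.

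Complex III passes electrons from coenzyme Q to cytochrome c. Its 8 members had a median change of 0.10, with 7 positive values and 0 calls. Uqcrfs1 (chromosome 13, 30540308 to 30545362, minus strand), the Rieske iron-sulfur protein, measured 42.6, 56.7 and 55.6 FPM in WT and 69.2, 51.4 and 52.2 FPM in KO (change 0.19). KO 1 stood above the rest, and KO 4 and KO 5 lay between WT 1 and WT 4. Uqcr11, a small accessory subunit with the largest fitted change of this complex, measured 12.4, 24.7 and 24.5 FPM in WT and 29.1, 21.8 and 22.1 FPM in KO (change 0.28, SE 0.286, limma adjusted p = 1). WT 1 was the lowest, and the other 5 libraries lay between 21.8 and 29.1 FPM. Uqcrh, the hinge protein at the cytochrome c side, had the highest level per length of complex III, 106 FPM per kb, and measured 114.3, 141.0 and 133.3 FPM in WT and 152.4, 131.2 and 115.8 FPM in KO (change 0.08).

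Complex IV, cytochrome c oxidase, reduces oxygen and is the complex with the most tissue isoforms. Of its 19 members 11 were tested, with a median change of 0.11, 10 positive values and 0 calls. In each isoform pair the ubiquitous or liver form was expressed and the other was at or near 0. Cox4i1 measured 102.0 to 129.4 FPM in WT and 113.7 to 144.3 FPM in KO (change 0.11), while Cox4i2, a lung and hypoxia form, was at most 0.1 FPM. Cox6a1 measured 46.8, 63.6 and 66.2 FPM in WT and 74.7, 65.1 and 59.7 FPM in KO (change 0.18), and Cox6a2, the heart and muscle form, at most 0.2 FPM. Cox7a2 measured 32.2 to 49.1 FPM in WT and 40.8 to 54.9 FPM in KO (change 0.16), and the muscle form Cox7a1 at most 0.5 FPM. Cox8a measured 52.6 to 81.4 FPM in WT and 70.3 to 85 FPM in KO (change 0.12), whereas Cox8b was at 0 in all 6 libraries and Cox8c, known from testis, at most 0.4 FPM. The testis form Cox7b2 did not exceed 0.3 FPM. Cox6b2, also known from testis, was the exception among the minor forms, at 0.3 to 1.1 FPM in each library. Ndufa4 measured 44.1 to 69.2 FPM in WT and 61.3 to 71.0 FPM in KO (change 0.14), and its hypoxia-associated paralog Ndufa4l2 at most 0.1 FPM. The muscle markers Ckm, Acta1, Myh6 and Myl2 together were 0.2 to 5.8 FPM in WT and 0.6 to 2.3 FPM in KO. No minor isoform appeared in KO libraries that was missing from WT libraries. The highest values of Cox6a2, Cox7a1, Cox7b2, Cox8c and Ndufa4l2 were all in WT 1, as was that of the muscle marker sum. WT 1 was also the library with the highest olfactory and vomeronasal receptor signal. Cox6b1 was the 1 tested member of the complex with a negative fitted value, at 37.9, 38.8 and 40.7 FPM in WT and 44.4, 26.1 and 37.0 FPM in KO. As with Sdhc the low library was KO 4, and the change of -0.09 was 0.06 without KO 4. Without WT 4 it was 0.21, again the difference within series 22.

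**Figure D4:**
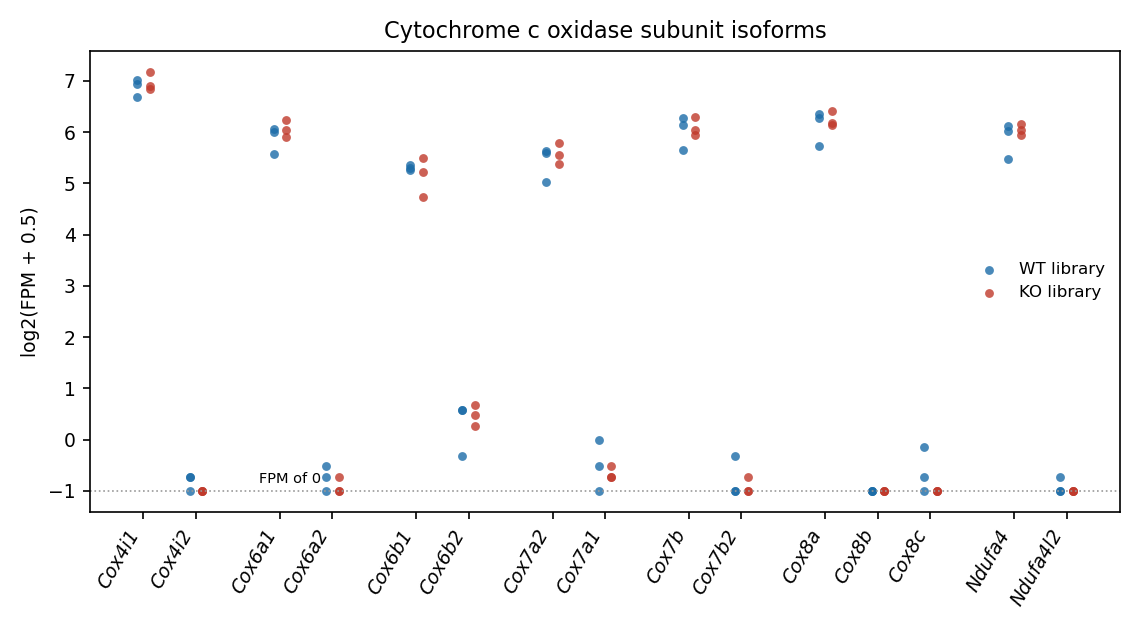
Points are log2(FPM + 0.5) of complex IV subunits in the 3 WT (blue) and 3 KO (red) libraries, with the expressed isoform of each pair beside its tissue-restricted forms; the dotted line marks an FPM of 0. The expressed forms overlap between genotypes, and of the minor forms Cox6b2 alone reaches 0.3 FPM or more in every library.

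ATP synthase had the largest summed FPM of the complexes (1536.7 to 2306.6), a sum not corrected for gene length. Per kb of exon its median was below those of complexes II, III and IV. All 16 tested members had a positive fitted value, with a median of 0.13 and 0 calls. Atp5b (ENSMUSG00000025393.12, chromosome 10, 128083273 to 128090391, plus strand), the catalytic beta subunit, measured 392.7, 526.3 and 549.6 FPM in WT (mean 489.5 ± 84.7, SD, n = 3), and 628.2, 549.0 and 520.4 FPM in KO (mean 566 ± 55.8, SD, n = 3). WT 1 was the lowest and KO 1 the highest, and the other 4 libraries lay between 520.4 and 549.6 FPM. The change was 0.21 (SE 0.163, 95% interval -0.17 to 0.59, limma adjusted p = 1). Without KO 1 it was -0.04, which is the difference within series 24. Atp5a1, the alpha subunit that pairs with it in the F1 head, measured 392.7, 502.6 and 538.1 FPM in WT and 577.1, 509.2 and 493.9 FPM in KO (change 0.14), again with WT 1 lowest and KO 1 highest. Atp5e, the small epsilon subunit of the central stalk (chromosome 2, 174461072 to 174464105, minus strand), had the widest spread: 27.4, 62.6 and 61.0 FPM in WT and 71.3, 61.9 and 57.6 FPM in KO. Only WT 1 stood apart (WT 1 minus WT 2 was -1.18 on the log2 scale), and the change of 0.37 (SE 0.314, 95% interval -0.36 to 1.10) was 0.06 without WT 1. The 5 genes of the F1 head and central stalk had a median change of 0.14, and the 11 other tested subunits 0.12. Exons of Atp5f1 overlap those of Wdr77, the partner protein of PRMT5, on the opposite strand, and Atp5j overlaps Gabpa in the same way. Wdr77 had a fitted change of -0.06 and Gabpa of -0.02, neither of which passed the test (limma adjusted p = 1). In all, 23 members overlap exons of another gene with a mean of at least 1 FPM, 22 of them on the opposite strand, and the sources used here state no strand setting for the counting.

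Of the 6 assembly or associated factors, 4 had a positive fitted value, the median was 0.08 and 0 were called. Cox7a2l, known as a supercomplex factor for complexes III and IV, measured 213.9, 257.4 and 270.3 FPM in WT and 305.5, 277.2 and 243.2 FPM in KO (change 0.16). Whether its protein acts this way in these mice was not tested. The groups overlapped, with KO 5 below WT 2 and WT 4. Sdhaf3, a factor for the iron-sulfur subunit of complex II, did not follow the shared profile: it was chosen after its values were seen, and its WT 1 value of 6.8 FPM was above WT 2 at 5.9 FPM.

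Levels of different genes were compared per kb of exon. The median was 26.2 FPM per kb over the 81 tested members, against 4.52 over all genes tested. It was 19.9 for complex I, 34.2 for complex II, 42.9 for complex III, 52.9 for complex IV, 30.0 for complex V and 6.52 for the factors. The highest members were Cox7a2l at 177, Atp5a1 at 160.2, Atp5b at 125 and Cox8a at 118 FPM per kb. Per kb of mRNA, taken as the median length of a gene's basic protein-coding transcript models, the members' median was 50.8, Uqcrh led at 277 and Atp5b followed at 275, so the order of the top members depended on the length used. Complex IV had the highest median of the 5 complexes with either length (109.8 FPM per kb of mRNA) and complex I the lowest (36.6).

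The 13 messages encoded in mitochondrial DNA, whose products join these subunits, did not share the profile. Their summed FPM was 11051.8, 10504.9 and 9722.5 in WT and 10951.4, 9316.2 and 8361.8 in KO. Only 1 of the 11 tested messages was lowest in WT 1, the library in which the nuclear members were lowest. The ratio of the mitochondrial to the nuclear sum was 2.69 in WT 1 and 1.64 to 1.96 in the other 5 libraries. The 11 messages had a median change of -0.15, with 9 negative values and 0 calls. The messages of smallest p were those of complex I: mt-Nd5, with 346.9, 272.2 and 220.5 FPM in WT and 246.7, 193.3 and 197.3 FPM in KO (change -0.25), and mt-Nd1 (change -0.19), both with a limma adjusted p of 1.

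Other nuclear genes of mitochondrial energy metabolism were taken from lists. None of their genes was called, and none had an unadjusted p below 0.05 in limma (0.248% of all genes had). As background for the counts below, 54.4% of all genes tested had a positive fitted value, their median was 0.01 and 46% were lowest in WT 1. Of 43 tested assembly factors, 32 had a positive fitted value, with a median of 0.07 and 31 lowest in WT 1. Bcs1l, which inserts the Rieske protein into complex III, measured 7.8, 7.4 and 9.7 FPM in WT and 10.6, 10 and 9.5 FPM in KO (change 0.23), and Ndufaf2, an assembly factor of complex I, had a change of 0.32. Of 20 genes of electron carriers and coenzyme Q synthesis, 14 were positive with a median of 0.06. Coq5, a methyltransferase of coenzyme Q synthesis, measured 23.9, 25.6 and 27.8 FPM in WT and 30.7, 32.4 and 29.7 FPM in KO, without overlap, and its change of 0.23 did not pass the test (limma adjusted p = 1). Etfb, a subunit of the electron transfer flavoprotein, also showed no overlap, at 2.3 to 3.5 FPM in WT and 3.9 to 5.0 FPM in KO (change 0.49, limma adjusted p = 1). Of all genes, 2.88% had WT and KO values without overlap, and the 2 genes of each list named here are those of smallest p. Of 20 genes of the tricarboxylic acid cycle and pyruvate dehydrogenase, 19 were positive with a median of 0.07. Among them Pdhx, a binding component of the pyruvate dehydrogenase complex, and Idh2, the mitochondrial NADP-linked isocitrate dehydrogenase, each had a change of 0.16. Pdhx measured 12.7, 12.7 and 13.9 FPM in WT and 15, 15 and 14.6 FPM in KO, again without overlap, and did not pass the test. Of 19 tested regulators of mitochondrial biogenesis, 11 were positive with a median of 0.03. The coactivator gene Ppargc1b measured 7.6, 5.2 and 6.2 FPM in WT and 4.5, 5.8 and 4.8 FPM in KO (change -0.33), and Twnk, the mitochondrial DNA helicase, had a change of 0.16. Of 8 tested carriers and inhibitors, 7 were positive with a median of 0.05. Slc25a4, an ADP/ATP carrier, had a change of 0.21, and Ucp2, an inner membrane carrier, a change of 0.11. The median of each of these 5 lists of nuclear genes was positive in series 22 (0.15 to 0.28) and negative in series 24 (-0.14 to -0.07). All genes tested had the same signs, with medians of 0.12 and -0.08.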

How the data were processed

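RNA sequencing values of 6 mouse CD4 T cell samples were used. The authors deposited robust FPM, a per-million unit like RPM, in which fragments per gene are scaled by robust size factors, per the file's name and values. Per the submitters' processing notes, STAR, featureCounts, DESeq2 and DESeq were used, with the genome build GRCm38.p3, and no source used here gives their roles or versions. The labels' protocols state ribosomal RNA removal and stranded TruSeq libraries. Another 6 columns matched none of the samples and were not used.

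Of 54532 gene rows, 54409 were matched to a symbol. ERCC rows (92) were left out of the tests. Genes with a mean of at least 1 were analysed as log2(FPM + 0.5), which understates changes of genes with low values, with limma 3.58.1 (R 4.3.3), a mean-variance trend, terms for library series and genotype, a two-sided moderated test and Benjamini-Hochberg adjustment at 0.05. The interaction was a further term. Replicates are called biological in the series' design text. Members and lists were chosen with earlier results of these data known, and lists are described without a test. Named genes were Atp5b, Ndufb8 and Prmt5, the 2 members of smallest p and the one with the highest FPM per kb in each complex, the isoform pairs, and the 2 genes of smallest p in each list. The fit was tested on simulated data. Alternatives changed the pseudocount (0.1, 1), filter, scaling, variance model, series term, replicate block, threshold and libraries; levels per kb of mRNA were added after seeing the data. Promoters are from RefSeq (GRCm38.p6). Figures were drawn with matplotlib 3.10.9.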

Additional observations from a re-analysis of the deposited data

Results flagged for a closer look

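The median KO minus WT over the 81 respiratory chain members was 0.37 in library series 22 and -0.12 in library series 24, on the log2(FPM + 0.5) scale. It stood out because the members' mean in KO 1 lay above both WT libraries of series 22 while the means in both KO libraries of series 24 lay below WT 4. The medians of all genes tested had the same opposite signs, 0.12 in series 22 and -0.08 in series 24. The difference between the medians was not tested. Gene by gene, the interaction of genotype and series called 0 of the 81 members with limma.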

How the results depend on the processing

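No member was called for genotype, series or their interaction under any setting that gave a value, a threshold of 0.1 included. The interaction could not be fitted without WT 4 or without KO 1, since 1 series then holds a single genotype. The median change of the members was 0.13, and it ranged from -0.12 (without KO 1) to 0.37 (without WT 4) when 1 library was left out. These ends are the medians within series 24 and within series 22, because the other series then holds a single genotype. The median was -0.092 with ERCC scaling, and between 0.11 and 0.22 under the alternatives that changed neither the libraries nor to that scaling. The number of members lowest in WT 1 was 73 (46.0% of all genes), and it was 76 with scaling to the total (56.6% of all genes). It was 59 with median-of-ratios scaling (30.0% of all genes) and 2 with ERCC scaling (0.69% of all genes). The median level of the members was 26.2 FPM per kb of exon and 50.8 per kb of mRNA. WT and KO share only the replicate numbers 1 and 4, whose deviations from their group means correlated at -0.16 and -0.41. Between libraries of unlike numbers the correlations ran from -0.36 to 0.49. With 3 libraries per group and the series left in, these values cannot settle whether the numbers pair the samples. With a replicate block the members' median was 0.22. In that fit 5 genes of all were called (1 higher, 4 lower), none of them a member. Without WT 2, 45 members had an unadjusted interaction p below 0.05 (2250 of 15009 genes), and the smallest limma adjusted p of a member was 0.311.

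With ERCC scaling the change became -0.00658 for Atp5b, -0.036 for Ndufb8, -0.00918 for Ndufb5, -0.064 for Ndufa2, -0.084 for Sdha, -0.024 for Uqcrfs1, -0.14 for Uqcrh, -0.036 for Cox6a1, -0.058 for Cox7a2, -0.094 for Cox8a, -0.082 for Atp5a1, -0.11 for Cox4i1, -0.058 for Cox7a2l, -0.080 for Ndufa4, -0.055 for Pdhx, -0.060 for Idh2, -0.056 for Twnk, -0.012 for Slc25a4 and -0.11 for Ucp2, with the median of all genes at -0.20. Leaving out 1 library gave both signs for these genes: Atp5b -0.040 to 0.47, Ndufb8 -0.055 to 0.42, Ndufa2 -0.12 to 0.43, Sdha -0.052 to 0.32, Sdhc -0.70 to 0.17, Uqcrfs1 -0.10 to 0.49, Uqcr11 -0.16 to 0.72, Uqcrh -0.11 to 0.26, Cox6a1 -0.086 to 0.45, Cox7a2 -0.14 to 0.46, Cox8a -0.13 to 0.37, Atp5e -0.031 to 0.78, Atp5a1 -0.10 to 0.38, Cox4i1 -0.15 to 0.37, Cox6b1 -0.38 to 0.21, Cox7a2l -0.058 to 0.38, Ndufa4 -0.13 to 0.41, Idh2 -0.029 to 0.35, Twnk -0.00409 to 0.32, Slc25a4 -0.018 to 0.43 and Ucp2 -0.11 to 0.33. The causes were not tested. Depth is unknown, 3 libraries per group limit the precision, and each series holds 1 library of one genotype. Where leaving out a library leaves 1 sample of a group, limma takes it to vary like the others.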
